A study of Homo sapiens with 6 samples.

Results

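The 10 imprinted genes H19, IGF2, KCNQ1OT1, MEG3, PEG3, PEG10, MEST, SNRPN, PLAGL1 and GNAS were examined for open chromatin, out of 38899 protein-coding and lncRNA genes of GENCODE release 44 with a canonical transcript. They were taken by name as genes under CTCF or methylation control, and each was given a window of its gene body and 20 kb on either side. All 10 were found, and the windows spanned 1038.2 kb in all. ATAC-seq, in which Tn5 transposase cuts accessible DNA, was done in MCF10A, a line of human mammary epithelial cells that does not form tumors. The 3 conditions were untreated control cells, cells given 50 μM TPA, a cell-permeable chelator of Zn2+, and cells given 30 μM ZnCl2. Each treatment lasted 30 min, and each condition had 2 libraries. The sources call the replicates biological in one place and technical in another, so the p-values below measure only the spread between these libraries. Calls cannot be assigned to a parental allele.

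Imprinted genes are expressed from one parental allele. The choice is set by control regions that carry DNA methylation on one allele from the germ line onward, and CTCF, a zinc-finger protein that can act as an insulator, binds several of them where they are unmethylated. ZFP57 and ZNF445, zinc-finger proteins that recruit TRIM28 and SETDB1, and DNMT1 with UHRF1 keep the methylated allele methylated. A control region that is methylated on one allele and free on the other is therefore known as a place where one copy can be open while the other is closed.

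The deposited lists held open regions called by HMMRATAC in each library separately, with a whole-number score for each region. The lists held 25031 regions for control replicate 1 and 44641 for control replicate 2, 35902 and 41376 for the TPA replicates, and 38069 and 18887 for those of ZnCl2. A score was read only as a percentile, the percent of regions in the same list with a lower score, or as a rank from the top of that list. Read counts were not part of the lists and depth is unknown, so a region without a call is one that was not called. Regions of the 6 libraries that overlapped or touched were joined into 49527 merged regions, of which 15 reached into the 10 windows.

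The CTCF sites of the H19 control region are the best known among these loci. This region lies between H19, a noncoding RNA of the maternal allele, and IGF2, a growth factor of the paternal allele, and CTCF bound there insulates IGF2 from shared enhancers. The letters CCNCNNGGNGGCAG, a core of the CTCF motif, were searched on both strands of hg38. They occurred 5 times in the 9387 bp that GENCODE gives to H19, whose longest transcripts begin upstream of the usual promoter and run over the control region, all on the minus strand at chr11:1999968-1999981, chr11:2000780-2000793, chr11:2002213-2002226, chr11:2002614-2002627 and chr11:2003019-2003032. The 5 matches are shown with 10 bases on either side because they form a repeat, and capitals mark the matched letters.
H19 match 1: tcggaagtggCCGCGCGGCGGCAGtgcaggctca
H19 match 2: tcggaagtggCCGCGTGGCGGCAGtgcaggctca
H19 match 3: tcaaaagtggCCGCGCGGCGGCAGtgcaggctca
H19 match 4: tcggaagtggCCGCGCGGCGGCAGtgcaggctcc
H19 match 5: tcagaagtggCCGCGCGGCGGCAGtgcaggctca
Among 312289 stretches of hg38 of the same length, 2.59% held at least 1 match and 22 held at least 5. None of the 5 matches lay within a call of any library, and the nearest call of any library was 52.2 to 55.3 kb away. Across hg38 18.7% of 8652 matches lay within a call of at least 1 library, from 6.69% in control replicate 1 to 14.8% in control replicate 2. The whole H19 window was without a call in all 6 libraries, and none of its 24 annotated transcript starts was covered.

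IGF2 was also without a call over its canonical start, at chr11:2139389, in every library. The only call on the gene itself was a 2880 bp region at chr11:2155691-2158570 in ZnCl2 replicate 1, at a percentile of 34.5. It covered 2 of the 10 annotated transcript starts of IGF2, those at the far 5' end of the gene. The calls that recurred lay further upstream, outside any gene and past TH, which encodes tyrosine hydroxylase.

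A merged region at chr11:2174771-2176700, 2956 bp upstream of the TH start, was open in all 6 libraries. Its percentile was 77.8 and 78.4 in the control, 76.9 and 76.5 in the TPA libraries, and 70 and 28.7 in those of ZnCl2. The control and TPA libraries were within 2 percentage points of each other, while ZnCl2 replicate 2 stood far below the other 5. The next merged region, at chr11:2176861-2181600 and 5046 bp upstream of TH, was called in 5 libraries. Each control library had a single call there, at percentiles of 47.9 and 54.6, and so had ZnCl2 replicate 1, at 41.9, while ZnCl2 replicate 2 had none. Each TPA library had 2 separate calls, at 82.1 and 23.9 in replicate 1 and 83.6 and 45.4 in replicate 2. The higher TPA calls lay above both control values and the lower ones below them. With the higher call standing for a library, as in all comparisons of merged regions here, TPA exceeded the control mean by 31.6 percentage points (exact permutation test, two-sided, p = 0.333, the smallest that 2 libraries against 2 allow). Only the control calls of this region reached into the IGF2 window, and those of TPA and ZnCl2 replicate 1 lay past its edge.

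**Figure D1:**
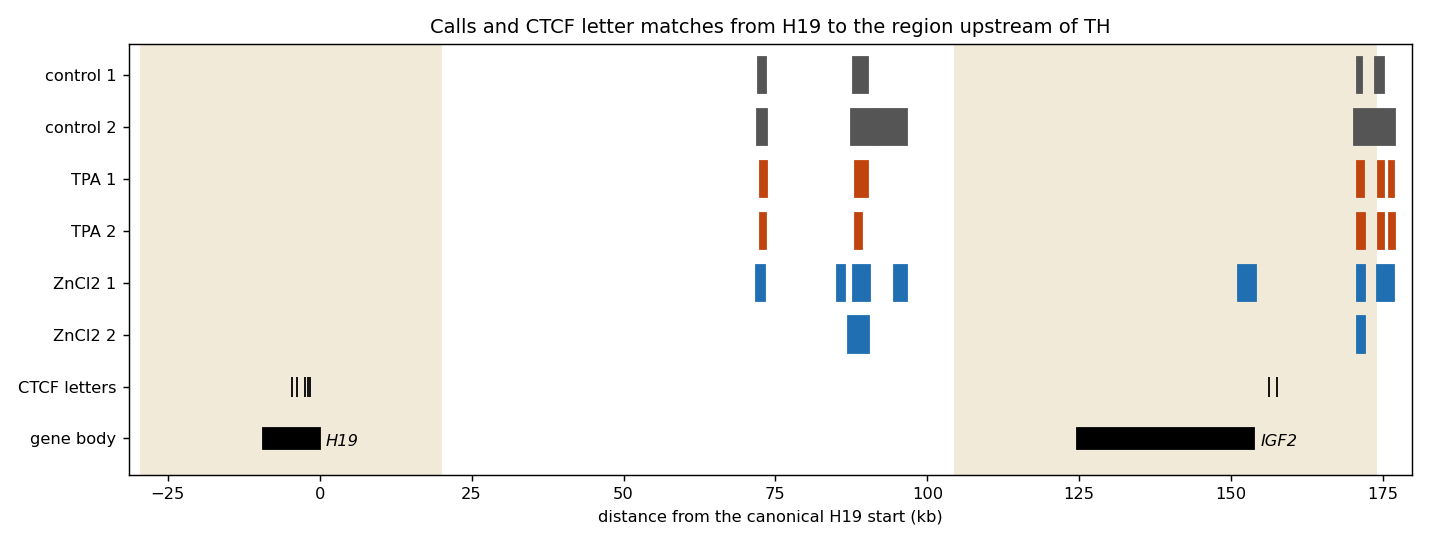
Calls of each library (bars, 1 row per library) from the H19 window to just past the IGF2 window, against the distance in kb from the canonical H19 start along the reference, with the windows shaded, the gene bodies in black and matches to the CTCF letters within the windows as ticks. The H19 window and its 5 matches hold no call, and the calls of the IGF2 window lie at its far end in all 6 libraries and over the 5' end of the gene in ZnCl2 replicate 1.

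KCNQ1OT1 is a paternally expressed noncoding RNA that starts inside an intron of KCNQ1, at a control region methylated on the maternal allele, and it silences neighbors such as CDKN1C. It was the only member whose canonical start, at chr11:2700003, was covered in all 6 libraries. The merged region at chr11:2698371-2701460 had percentiles of 69.2 and 64.7 in the control, 59.4 and 79.7 in the TPA libraries and 58.7 and 0 in those of ZnCl2. In ZnCl2 replicate 2 no region of the list had a lower score, although the call was 2010 bp wide and the other 5 calls were 2030 to 2790 bp. The mean was 67.0 ± 3.13 in the control, 69.5 ± 14.4 with TPA and 29.3 ± 41.5 with ZnCl2 (SD, n = 2 libraries). Both ZnCl2 values lay below both control values, with a difference of -37.6 percentage points in the mean (exact permutation test, p = 0.333), or -8.27 points without ZnCl2 replicate 2. With an equal number of regions per library, the 18887 best-scored of each list, the difference was -29.5 points and the groups no longer separated (exact permutation test, p = 0.667). TPA and control overlapped, with a difference of 2.58 points (exact permutation test, p = 1). The other call in the window was 840 bp long, within the transcript, and came from TPA replicate 2 at a percentile of 0. None of 5 matches to the CTCF letters in this window lay within a call.

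PEG10, a gene derived from a retrotransposon and expressed from the paternal allele, shares a promoter region with SGCE, which runs the other way and encodes a sarcoglycan. The merged region at chr7:94654671-94659040 held both canonical starts and was among the best-scored of each list. Its percentile was 99.6 and 99.7 in the control, 99.6 and 99.5 in the TPA libraries and 99.8 and 99.6 in those of ZnCl2. Its rank from the top was 99 and 118 in the control, 153 and 198 in the TPA libraries and 89 and 73 in those of ZnCl2. The call was 3830 to 4300 bp wide in 5 libraries and 1570 bp in control replicate 1, where it lay within PEG10 and held neither canonical start. The PEG10 start therefore counted as covered in 5 libraries, although the region was called in 6. A second region within SGCE, at chr7:94642851-94644800, was called in control replicate 2 and TPA replicate 2 at percentiles of 0 and 3.39.

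PLAGL1, which encodes a zinc-finger transcription factor that restrains growth, has a proximal promoter shared with the noncoding HYMAI and methylated on the maternal allele, and a distal promoter that is known to act from both alleles. The RefSeq sequences of both (GRCh38.p14, 250 bases before to 50 after each start, minus strand) are shown because the libraries differed between them. Capitals mark TGCCGC or its reverse complement GCGGCA, the letters that ZFP57 binds when methylated, which 16.7% of 34943 RefSeq promoters hold.
PLAGL1 proximal, chr6:144008210-144008509: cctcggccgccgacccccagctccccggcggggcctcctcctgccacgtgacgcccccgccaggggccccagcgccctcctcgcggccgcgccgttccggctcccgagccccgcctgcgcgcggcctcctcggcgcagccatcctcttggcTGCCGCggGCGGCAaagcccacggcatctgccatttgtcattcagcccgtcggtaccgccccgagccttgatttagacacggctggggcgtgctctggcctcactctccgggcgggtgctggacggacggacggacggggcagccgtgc
PLAGL1 distal, chr6:144064550-144064849: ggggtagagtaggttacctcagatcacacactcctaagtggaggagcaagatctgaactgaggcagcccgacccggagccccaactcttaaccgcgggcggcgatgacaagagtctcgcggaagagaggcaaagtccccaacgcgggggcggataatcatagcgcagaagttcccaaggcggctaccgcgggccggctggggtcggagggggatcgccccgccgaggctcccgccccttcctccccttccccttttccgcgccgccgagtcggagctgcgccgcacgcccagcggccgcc
The proximal sequence holds 39 CpG and 2 matches, and the distal one 31 CpG and 0 matches, where the median RefSeq promoter holds 14 CpG.

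At the proximal start the merged region chr6:144006261-144009160 was called in control replicate 2 and ZnCl2 replicate 1, at percentiles of 32.5 and 34.5, and in neither TPA library. At the distal start the region chr6:144062501-144065140 was called in all 6 libraries, at 27.7 and 58 in the control, 18.6 and 34.3 with TPA and 73.7 and 25.3 with ZnCl2. By percentile the 3 conditions overlapped. By rank from the top the libraries separated, at 17284 and 18302 in the control, 28278 and 26343 in the TPA libraries and 9740 and 13464 in those of ZnCl2. Both TPA ranks were further from the top than both control ranks, and both ZnCl2 ranks nearer. The lists differ in length, from 18887 to 44641 regions, and no call of ZnCl2 replicate 2 can rank past 18887, close to both control ranks, so list length enters this order. The list of control replicate 1 ends at 25031, and both TPA ranks lay past that, so this control library could only be nearer the top than TPA. With an equal number of regions per library, the best 18887 of each list, the percentile difference of ZnCl2 from the control went from 6.65 to 33.7 points and the groups separated (exact permutation test, p = 0.333). Neither TPA call was among the best 18887 of its list, so TPA had no percentile there.

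The distal region also held the only 1 of 17 matches to the CTCF letters in the 10 windows that lay within a call, at chr6:144064088-144064101 on the minus strand, and it was covered in all 6 libraries. Across hg38 18.7% of the 8652 matches lay within a call. The match is shown with 10 bases on either side, with the matched letters in capitals.
PLAGL1 match: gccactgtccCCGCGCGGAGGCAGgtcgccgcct
The remaining matches were 5 each at H19 and KCNQ1OT1, 3 at MEG3, 2 at IGF2 and 1 at GNAS, and none was found in the windows of PEG3, PEG10, MEST or SNRPN, which says only that these letters are not there.

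GNAS encodes the alpha subunit of the stimulatory G protein and has several first exons with different imprints. The promoters of NESP55 and of XLαs with the antisense GNAS-AS1 lie far upstream, those of exon A/B just before the canonical first exon, and the canonical promoter is itself unmethylated on both alleles. The merged region chr20:58888061-58893140 spanned the stretch before and over the canonical start and was called in all 6 libraries. Its percentile was 9.08 and 41.2 in the control, 13.1 and 36.3 in the TPA libraries and 45.1 and 25.3 in those of ZnCl2. The 3 conditions overlapped. The call was 4380 to 5080 bp wide in 5 libraries and covered the canonical start at chr20:58891421. In control replicate 1 it was 1750 bp wide and ended before that start. The RefSeq start inside all 6 calls, at chr20:58889180, is shown because it was the part of the locus called in every library, and its sequence holds 43 CpG, where 95% of RefSeq promoters hold fewer, and no match to the ZFP57 letters.
GNAS, chr20:58888930-58889229: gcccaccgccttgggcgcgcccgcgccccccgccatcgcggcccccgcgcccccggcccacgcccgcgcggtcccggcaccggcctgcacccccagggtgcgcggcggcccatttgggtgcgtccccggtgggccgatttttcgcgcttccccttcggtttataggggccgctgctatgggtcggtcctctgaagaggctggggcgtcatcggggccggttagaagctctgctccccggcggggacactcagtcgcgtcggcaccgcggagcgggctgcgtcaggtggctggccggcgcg

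Further upstream the region chr20:58850111-58854140, over the GNAS-AS1 start, was called at percentiles of 36 in control replicate 2, 23.9 and 9.73 with TPA and 34.5 in ZnCl2 replicate 1. It was missing from control replicate 1 and ZnCl2 replicate 2, the 2 shortest lists. The RefSeq starts at chr20:58852716 and chr20:58852981 fell inside this call in control replicate 2 only, where it was 3830 bp wide against 1040 to 1850 bp in the other 3 libraries. The starts furthest upstream, at chr20:58839748 and chr20:58841620, were covered in no library. A region within a GNAS intron, chr20:58875341-58876110, was called in control replicate 2 and TPA replicate 2 at percentiles of 17.1 and 3.39.

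SNRPN, which encodes a spliceosome protein and lies at the control region of the Prader-Willi and Angelman locus, and MEST, a paternally expressed hydrolase-like gene, were covered weakly and in few libraries. Their promoters with an imprint are shown for the ZFP57 letters, again in capitals, on the plus strand.
SNRPN, chr15:24954737-24955036: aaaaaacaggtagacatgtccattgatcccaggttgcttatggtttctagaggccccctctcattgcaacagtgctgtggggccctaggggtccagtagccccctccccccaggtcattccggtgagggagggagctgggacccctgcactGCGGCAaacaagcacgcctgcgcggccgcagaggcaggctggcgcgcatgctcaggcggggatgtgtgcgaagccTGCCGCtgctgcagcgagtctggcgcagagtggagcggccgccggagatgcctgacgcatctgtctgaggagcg
MEST proximal, chr7:130491835-130492134: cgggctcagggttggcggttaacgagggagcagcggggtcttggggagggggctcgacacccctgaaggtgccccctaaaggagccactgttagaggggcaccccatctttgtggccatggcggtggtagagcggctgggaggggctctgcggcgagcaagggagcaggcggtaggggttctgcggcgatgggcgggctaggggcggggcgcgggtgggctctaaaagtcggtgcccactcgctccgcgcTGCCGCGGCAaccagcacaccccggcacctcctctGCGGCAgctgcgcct
The SNRPN sequence holds 2 matches and the MEST sequence 3, of which the first 2 overlap. The 2 RefSeq promoters at the distal MEST start, which is known to lack the imprint, hold 1 match each.

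The SNRPN start, at chr15:24954987, was covered in control replicate 2 and ZnCl2 replicate 1, in each at a percentile of 0. A second call in control replicate 2 and the call in TPA replicate 2 lay downstream of the start, at percentiles of 12.1 and 20.7, and all 4 calls joined into the merged region chr15:24953811-24957290. Control replicate 1, TPA replicate 1 and ZnCl2 replicate 2 had no call in the SNRPN window. The MEST canonical start, at chr7:130492085, was covered in no library. The distal MEST start lay within calls of control replicate 2 and ZnCl2 replicate 1 at percentiles of 17.1 and 15.8. Another RefSeq start of SNRPN, at chr15:24956300, was covered in control replicate 2, TPA replicate 2 and ZnCl2 replicate 1.

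MEG3, a maternally expressed noncoding RNA, and PEG3, a paternally expressed zinc-finger gene, had no call over any of their 34 and 10 annotated transcript starts. The PEG3 window held no call at all. The MEG3 window held 1 merged region, chr14:100761451-100762360, outside any gene between DLK1 and MEG3, at percentiles of 28.6 in control replicate 2 and 6.79 in TPA replicate 1. None of the 3 matches to the CTCF letters in the MEG3 window lay within a call, and the nearest call was 62 to 93.2 kb away. RefSeq promoter sequences were found for 6 of the 10 genes, and IGF2, KCNQ1OT1, PEG3 and PEG10 had no entry.

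**Figure D2:**
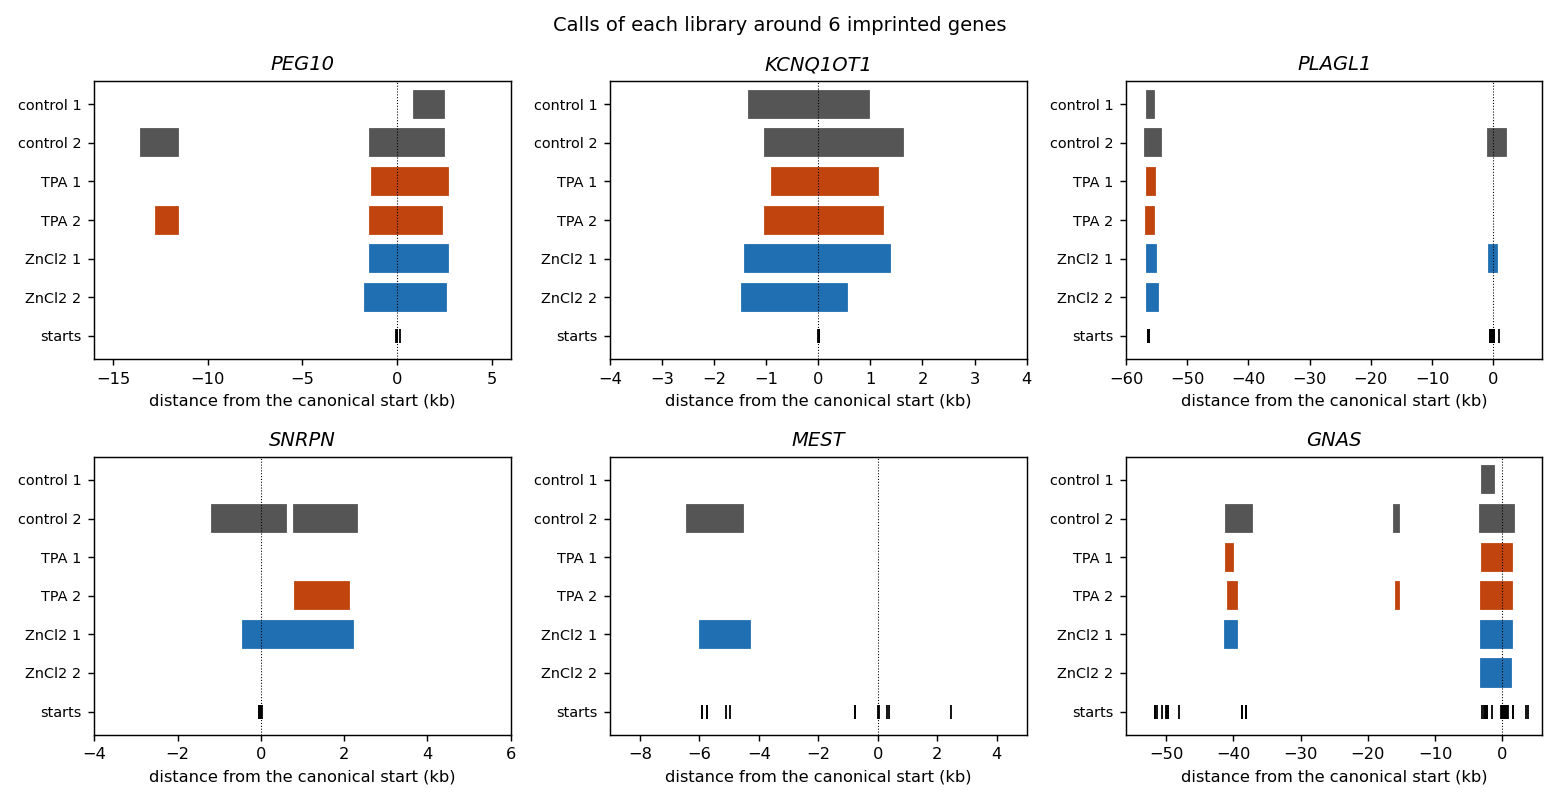
Calls of each library (bars, 1 row per library) around 6 of the genes, against the distance in kb from the canonical start in the direction of transcription, with annotated transcript starts as ticks. The call of control replicate 1 begins past the canonical start (dotted line) at PEG10 and ends before it at GNAS. At SNRPN and proximal PLAGL1 that start is covered in control replicate 2 and ZnCl2 replicate 1.

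Set side by side by their windows, the 10 genes fell into those with a region called in every library (IGF2, KCNQ1OT1, PEG10, PLAGL1 and GNAS), those called in some (SNRPN, MEST and MEG3) and those with none (H19 and PEG3). For IGF2 that region lay outside any gene, 2956 bp upstream of TH. The 2 windows without a call were 20% of the members, and 22.1% of all 38899 genes had such an empty window. Of the 15 merged regions in the windows, 5 were open in all 6 libraries, or 33.3%, and 2 in a single library, or 13.3%. Of all 49527 merged regions 32% were open in all 6 and 16.7% in a single library. The canonical start was covered in no library for 5 of the 10 members (H19, IGF2, MEG3, PEG3 and MEST), against 54.8% of all genes, and in all 6 for KCNQ1OT1 alone, against 28.7%.

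**Figure D3:**
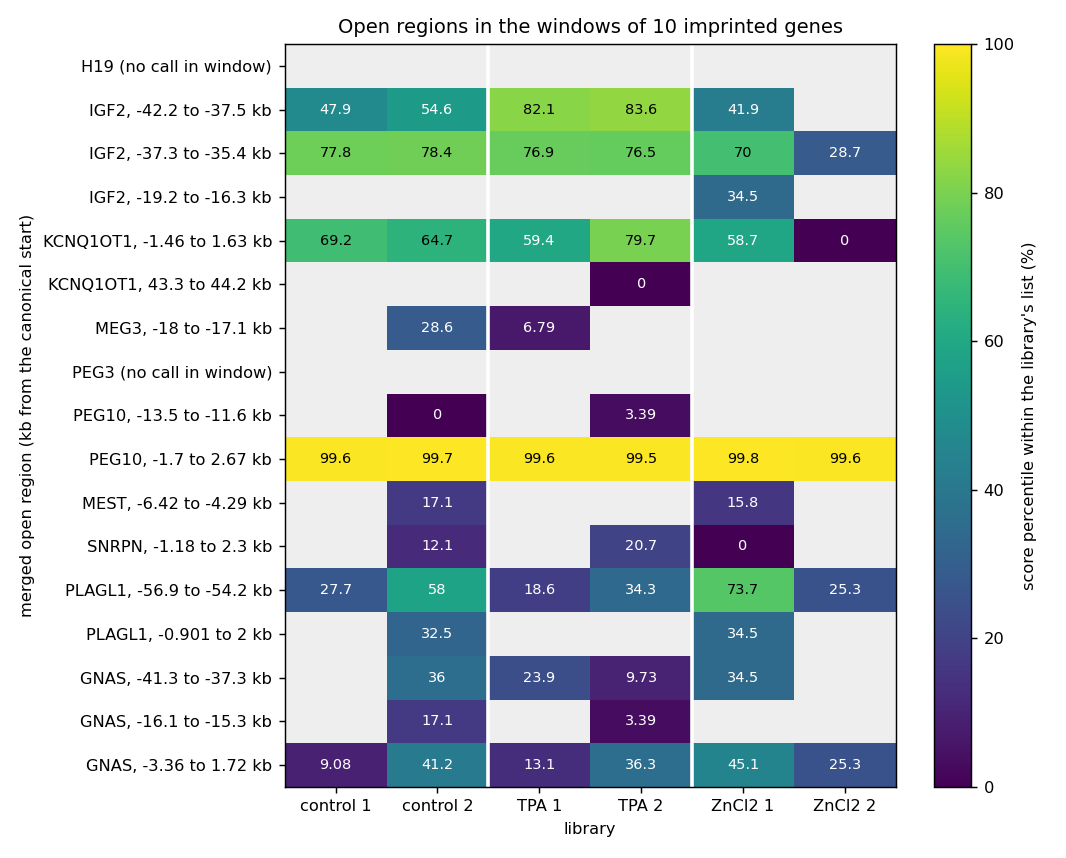
Score percentile (color and number, in percent) of each merged region in the windows of the 10 genes (rows, with the distance in kb from the canonical start) by library (columns), the higher where a library has 2 calls, with gray where no call was made. The region of the PEG10 and SGCE starts is at 99.5 to 99.8 in every library, and the regions called in 1 or 2 libraries have percentiles of at most 34.5.

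The number of covered members followed no condition. A canonical start was covered in 1 and 5 of the 10 members in the control, 3 and 3 in the TPA libraries and 5 and 3 in those of ZnCl2, means of 3 ± 2.83, 3 ± 0 and 4 ± 1.41 (SD, n = 2 libraries). Of all genes 34.2% and 42.9% were covered in the control libraries, 37.3% and 39.1% in those of TPA and 41.1% and 31.8% in those of ZnCl2. The windows held 6 and 14 regions in the control, 7 and 10 in the TPA libraries and 10 and 5 in those of ZnCl2. The 2 control libraries spanned the treated ones in both counts, except for the 5 regions of ZnCl2 replicate 2. A longer list never had fewer regions in the windows than a shorter one, and the windows took between 0.0195% and 0.0314% of each list. With an equal number of regions per library, the mean difference from the control in regions in the windows went from -2.5 to 0 for ZnCl2 and stayed at -1.5 for TPA, and that in covered starts went from 0 to 0.5 for TPA and stayed at 1 for ZnCl2.

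**Figure D4:**
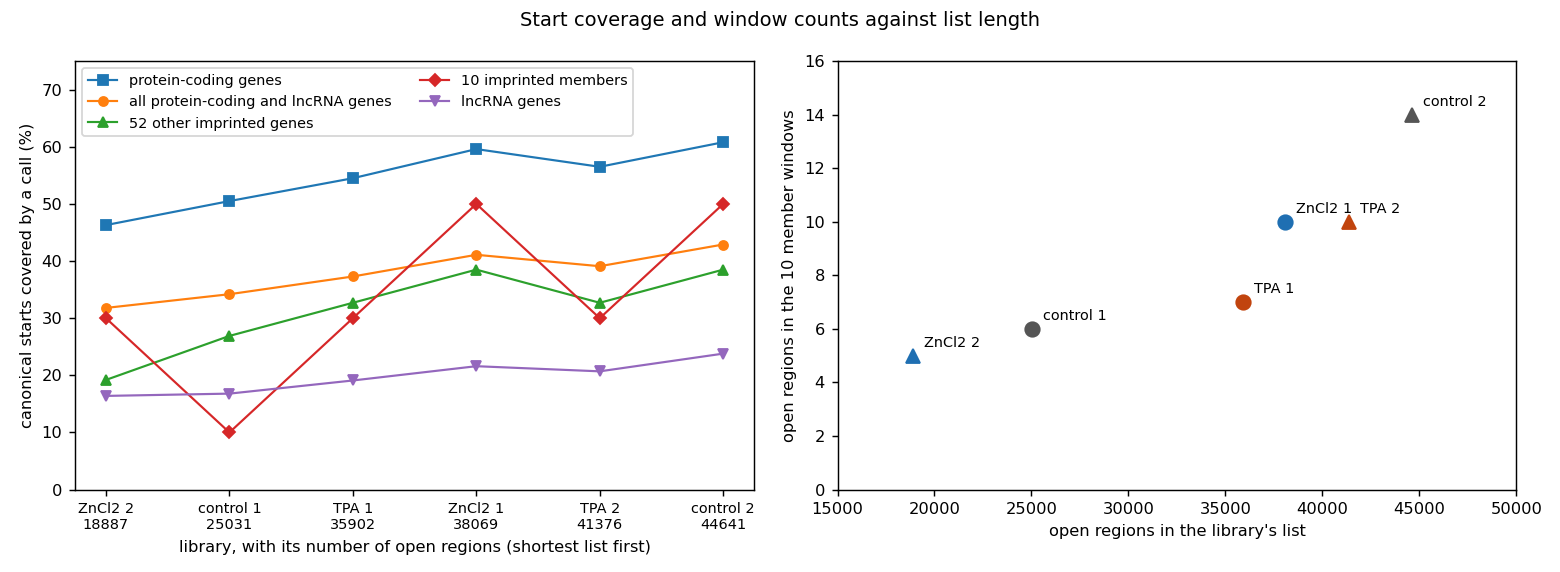
Left, the percent of canonical starts covered by a call in each library (shortest list first) for the 10 imprinted genes, 52 other imprinted genes, protein-coding genes, lncRNA genes and the last 2 together. Right, the number of open regions in the 10 windows against the number in the library's list, from 5 of 18887 in ZnCl2 replicate 2 to 14 of 44641 in control replicate 2.

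The comparison of treated with control cells asked whether chelating or adding Zn2+ changed which of these regions were open. With TPA, 0 of the 15 merged regions were gained (open in both TPA libraries and neither control library) and 0 were lost (the reverse), where 2.04% of all merged regions were gained and 0.703% lost. With ZnCl2, 0 of 15 were gained and 0 lost, where 0.172% and 1.73% of all merged regions were. Between TPA and ZnCl2, 0 of 15 were open in both TPA libraries only and 0 in both ZnCl2 libraries only, where 9.73% and 0.991% of all merged regions were. Against these backgrounds a count of 0 among 15 regions sets the imprinted genes apart in none of the comparisons.

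Percentiles were compared for merged regions called in all 4 libraries of a comparison. Of 6 such regions, 1 was higher in both TPA libraries than in both control libraries, the region 5046 bp upstream of TH, against 25% of all merged regions so called. Lower in both TPA libraries were 2, PEG10 and the region 2956 bp upstream of TH, against 12.6%. These 2 differences were -0.123 and -1.41 percentage points, and -0.357 and -7.48 with an equal number of regions per library, where TPA and control no longer separated at the region 2956 bp upstream of TH (exact permutation test, p = 0.667). With ZnCl2, 0 of 5 regions were higher, against 2.63%, and 2 were lower, KCNQ1OT1 and the region 2956 bp upstream of TH, against 17.3%. Without ZnCl2 replicate 2, the shortest list, these differences went from -37.6 to -8.27 and from -28.7 to -8.05 points. With an equal number of regions per library they were -29.5 and -25.6, and the groups still separated at the region upstream of TH but not at KCNQ1OT1. Between TPA and ZnCl2, 2 of 5 were higher with TPA (KCNQ1OT1 and the region 2956 bp upstream of TH), against 36.9%, and 1 lower (PEG10), against 12.4%.

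Ranks from the top gave other calls for some regions. Further from the top in both TPA libraries than in both control libraries were PEG10 and distal PLAGL1, 2 of 6 against 26.1% of all merged regions called in the 4 libraries, and nearer was the region 5046 bp upstream of TH, 1 of 6 against 24.6%. With ZnCl2, PEG10, distal PLAGL1 and GNAS were nearer, 3 of 5 against 25.1%, and the region 2956 bp upstream of TH was further, 1 of 5 against 19.2%. These counts depend on list length: no call of ZnCl2 replicate 2 can rank past 18887, so at GNAS, where the control ranks were 21748 and 25553, it could only be nearer than the control, and the percentiles there overlapped. At distal PLAGL1 both TPA ranks lay past 25031, where the list of control replicate 1 ends. That control library could therefore only be nearer than TPA, and the percentiles there overlapped too. No p can fall below 0.333 with 2 libraries against 2, so none of these differences could pass a threshold of 0.05.

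**Figure D5:**
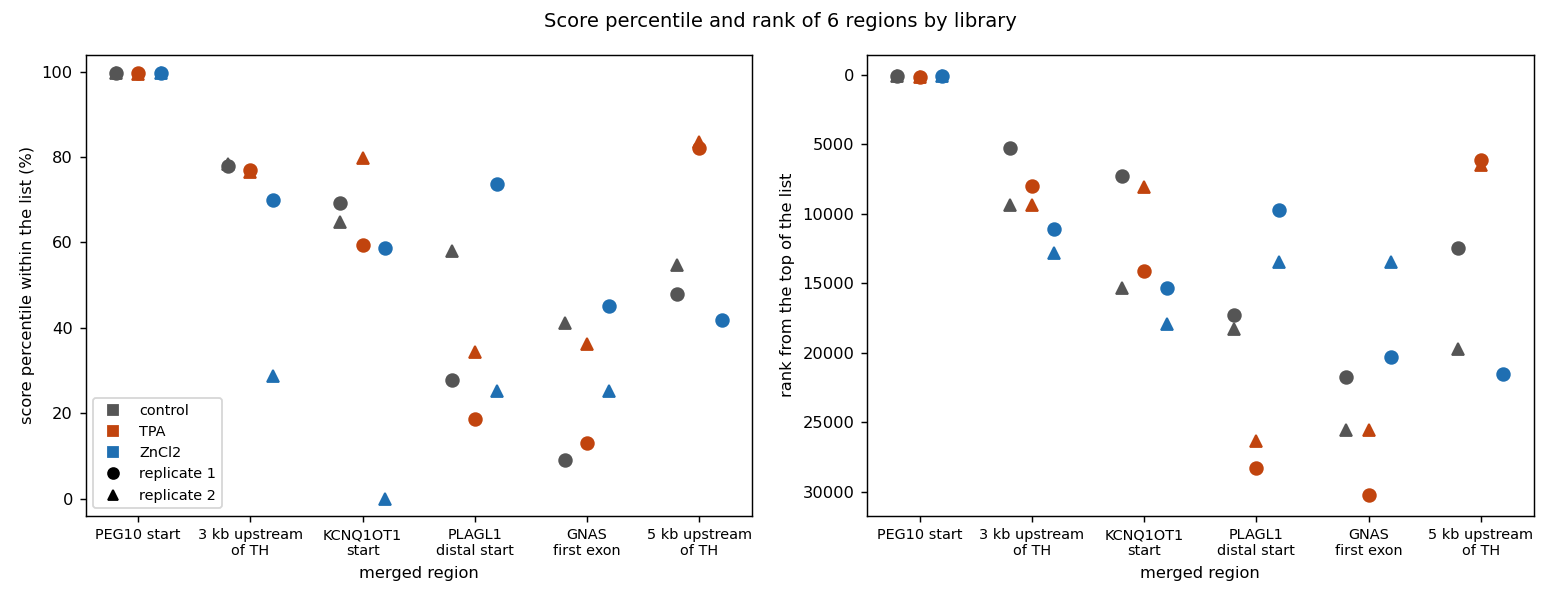
Score percentile in the library's own list (left, in percent) and rank from the top of that list (right, 1 being the best score) for 6 merged regions, with 1 point per library, colored by condition. PEG10 stays at the top in every library. At distal PLAGL1 the ranks of the 3 conditions do not overlap while the percentiles do, in lists of unequal length. The list of ZnCl2 replicate 2 ends at 18887, and that of control replicate 1 at 25031, before both TPA ranks at distal PLAGL1.

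By their medians the 15 merged regions were richer in GC and CpG than all merged regions, but not every one was. Their median GC content was 54.9% and their median ratio of observed to expected CpG 0.509, against 47.1% and 0.249 over all merged regions. Below both medians of all merged regions were chr11:2655841-2656680 at KCNQ1OT1 (46.4% and 0.135) and chr7:94642851-94644800 at PEG10 (36.6% and 0.139). The MEG3 region was below in GC content alone, at 36.8%. Among regions open in all 6 libraries the medians were 58.8% and 0.655 for the 5 at imprinted genes and 50.7% and 0.41 for all 15852. The 5 ranged in CpG ratio from 0.327 upstream of TH to 0.895 at GNAS. In the central 1000 bp the ZFP57 letters occurred in 5 of the 15 regions, against 21% of all, and the CTCF letters in 2 of 15, against 1.62%. Among regions open in all 6 libraries the ZFP57 letters occurred in the central 1000 bp of 1 of the 5, against 33.7% of all such regions. Over their whole length, these regions held 6 matches at KCNQ1OT1, 3 at GNAS and 2 at distal PLAGL1. There was 1 match in the region 2956 bp upstream of TH and 0 at PEG10. No share of all merged regions is given for whole regions. Of the 2 regions with the CTCF letters, 1 was that of distal PLAGL1 and in the other the match lay just outside the 840 bp region of KCNQ1OT1, which is shorter than the stretch searched.

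Of the factors that read or keep imprints, 5 of 8 had a canonical start covered in all 6 libraries, against 28.7% of all genes and 43% of protein-coding genes. CTCF itself was at percentiles of 96.2 and 96.1 in the control, 80 and 86.9 in the TPA libraries and 98.2 and 96.5 in those of ZnCl2. Both TPA values lay below both control values, as in 12.6% of merged regions called in all 4 of those libraries, and below both ZnCl2 values, as in 12.4%. TRIM28, the corepressor, was at 90.4 to 95.4 in every library, and SETDB1, the histone methyltransferase it recruits, at 60.5 to 92.3. DNMT1, the maintenance methyltransferase, was at 90.4 and 92.2 in the control, 83.6 and 84.3 in the TPA libraries and 82.9 and 57 in those of ZnCl2. The TPA values lay below both control values, as in 12.6% of merged regions called in all 4 of those libraries, and the ZnCl2 values did so too, as in 17.3%, with the lowest value in ZnCl2 replicate 2, the shortest list. Both comparisons rest on the same 2 control libraries. The shares set beside CTCF and DNMT1 are over merged regions and not over canonical starts, for which no share is given. UHRF1, its partner at replicated DNA, was at 52.4 to 87.4. ZNF445 was covered in 4 libraries, at 28.1 to 62.4, and not in control replicate 1 or ZnCl2 replicate 2. ZFP57 and CTCFL, the germ line paralog of CTCF, were covered in none.

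The label of the cells was checked against 12 mammary epithelial markers and 14 markers of other cell types. Epithelial starts were covered for 8 and 10 markers in the control, 10 and 10 in the TPA libraries and 11 and 4 in those of ZnCl2, and TP63 alone had its canonical start covered in no library. The CDH1 start was covered in both TPA libraries and neither control library, and that of KRT8 in both control libraries and neither TPA library. Over all merged regions, counted by any overlap and not by a start, 2.04% were gained and 0.703% lost with TPA. The share over all canonical starts was not computed. Of the others, CD68 was covered in each library and the remaining 13 in none. ZnCl2 replicate 2, with the fewest epithelial starts, was also the library with the shortest list.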

How the data were processed

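ATAC-seq libraries of untreated, TPA-treated and ZnCl2-treated MCF10A cells were analyzed, 2 per condition, with groups and replicate numbers taken from the sample labels. The authors trimmed adapters with BBDuk, mapped reads with HISAT2 2.1.0 to hg38, used SAMtools 1.8 and FastQC 0.11.8, and ran HMMRATAC on every library by itself to call open regions. The version and settings of HMMRATAC are not given in the sources used here. The deposited lists give each region a whole-number score of at least 30, whose kind is likewise not given, so scores were only ranked within a list. The lists precede the merging and blacklist removal described in the methods. No read counts were used, so depth is unknown and no interval is given.

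Only regions on the assembled chromosomes (1 to 22, X, Y) were used. A start was covered when a region overlapped its base, and a gene start was that of the Ensembl canonical transcript in GENCODE release 44. Regions were joined where they overlapped by 1 bp or touched, and a library with several calls in a merged region was given its best-scored one. Treated and control libraries were compared by two-sided exact permutation tests. The members, gene lists and tests were chosen with earlier results of these data known. All 10 members were named, with the imprint factors and, of 54 other imprinted genes, the 3 with the highest mean percentile among those covered in all 6 libraries and any with a start covered in both libraries of one condition and neither of another. The comparison by rank from the top and that of merged regions by percentile were added after the data were seen. Promoter sequences came from RefSeq (GRCh38.p14) and other sequence from hg38. Alternatives were an equal number of regions per library, the upper 50% of each list, rank from the top in place of percentile, and other start definitions. Further ones were flanks of 0 and 50 kb, an overlap of 50%, leaving out each library and a replicate block. Procedures were tested on simulated data. Python 3.11.15 was used with NumPy 2.4.6, pandas 2.3.3, SciPy 1.17.1 and Matplotlib 3.10.9.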

Additional observations from a re-analysis of the deposited data

Results flagged for a closer look

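By rank from the top, 3 of the 5 regions open in all 6 libraries had both TPA libraries further from the top than the control mean and both ZnCl2 libraries nearer. The mean rank was 15708 places further with TPA than with ZnCl2 at the distal PLAGL1 start, 11000 places at the first exons of GNAS and 94 places at PEG10 and SGCE. Of all 15852 merged regions open in all 6 libraries, 16.6% had this pattern and 11.6% the reverse. The difference in rank between the treatments was not tested. In percentile, TPA minus ZnCl2 was -0.146 points at PEG10 (exact permutation test, p = 0.333). It was -23 points at distal PLAGL1 and -10.5 at GNAS, where the treatments overlapped (exact permutation test, p = 0.667 each). ZnCl2 replicate 2 had the shortest list, in which no region can rank past 18887. At distal PLAGL1 and GNAS every TPA rank lay past that, so this library could only be nearer the top than TPA there. Every TPA rank at these regions also lay past 25031, where the list of control replicate 1 ends. That library, which enters the control mean, could likewise only be nearer the top than TPA. With an equal number of regions per library the percentile differed from the control by -0.357 points with TPA and 0.151 with ZnCl2 at PEG10 and by 33.7 with ZnCl2 at distal PLAGL1 (exact permutation test, p = 0.333 each), and could not be given for GNAS or for TPA at distal PLAGL1.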

How the results depend on the processing

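Over the alternatives, 78 recomputed values of the counts and of the KCNQ1OT1 start, and 52 of the other regions, counted as unchanged. Differences in percentile or rank had to keep their direction. Differences in covered starts and in regions in the windows had to move by no more than the replicate spread, which allows a change of sign. The numbers of regions gained or lost had to stay at 0. The exceptions were these. With an equal number of regions per library, 1 region was lost with TPA, the distal PLAGL1 start region, where 4.55% of all merged regions were lost. Leaving out 1 library at a time gave 0 to 1 regions gained with TPA (1 without TPA replicate 1 or control replicate 2), 0 to 2 lost with TPA (2 without control replicate 1), 0 to 1 gained with ZnCl2 (1 without ZnCl2 replicate 2) and 0 to 3 lost with ZnCl2 (3 without control replicate 1). Over the same omissions the mean difference from the control in regions in the windows ranged from -5.5 to 2.5 for TPA and from -6.5 to 1.5 for ZnCl2, and that in covered starts from -2 to 2 for TPA and from -1 to 3 for ZnCl2, so neither count has a settled direction, with the extremes reached without control replicate 1 or 2. The replicate block, averaged over the numbered pairs, gave 1.5 gained and 1.5 lost with TPA and 2.5 gained and 4 lost with ZnCl2. Same-numbered deviations in percentile correlated at 0.165 between TPA and control, -0.330 between ZnCl2 and control and -0.058 between TPA and ZnCl2 over 15852 regions. These correlations differ in sign, and the labels tie the replicate numbers to no batch or day. Crossing the ZnCl2 and control numbers, an alternative chosen after seeing the data, gave 0.5 gained and 2 lost. In percentage points over the libraries left out in turn, treated minus control ranged from -7.57 (without TPA replicate 2) to 12.7 for TPA at KCNQ1OT1, from -16.5 to 15.6 for TPA at GNAS (11.2 without TPA replicate 1, 15.6 without control replicate 2), from -5.98 (without control replicate 1) to 26.1 for ZnCl2 at GNAS, from -17.6 to 30.9 for ZnCl2 at distal PLAGL1 (-17.6 without ZnCl2 replicate 1, -8.52 without control replicate 1) and from -0.0526 to 0.1 for ZnCl2 at PEG10 (-0.0526 without ZnCl2 replicate 1, -0.0458 without control replicate 1). The cause was not tested. The percentile at an equal number of regions could not be given for the region 5046 bp upstream of TH, for GNAS or for distal PLAGL1 with TPA. With no reads and 2 libraries a condition, a weak region that was not called and a closed one cannot be told apart.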

Other observations

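Of 54 other imprinted genes looked up by symbol, 52 were found. Their canonical starts were covered for 14 and 20 genes in the control, 17 and 17 with TPA and 20 and 10 with ZnCl2. In all 6 libraries 8 were covered, or 15.4%, and 31 in none, or 59.6%. None had its start covered in both libraries of one condition and neither of another. Among the 8 covered in all 6 libraries, the 3 with the highest mean percentile were CPA4, a carboxypeptidase gene, at 88.5, INPP5F, a phosphoinositide phosphatase gene, at 87.5 and COPG2, a coatomer subunit gene next to MEST, at 85.5. SGCE, covered in 5 libraries, was at 99.5 to 99.8 in those.
Within the KCNQ1OT1 domain the starts of SLC22A18 and PHLDA2 were covered in all 6 libraries, with mean percentiles of 82.9 and 84.5. CDKN1C, an inhibitor of cyclin-dependent kinases, was covered in 5 libraries and not in ZnCl2 replicate 2, and KCNQ1 itself was covered in none. At the SNRPN locus UBE3A, a ubiquitin ligase gene, was covered in all 6, while NDN, MAGEL2, MKRN3, NPAP1, SNHG14 and ATP10A were covered in none. The genes of these domains and SGCE were chosen after their values were seen.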
